A study of Mus musculus with 18 samples.

Results

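Extensor digitorum longus (EDL) muscles of mice kept in a standard animal facility were compared with those of ground mice that lived in a copy of a flight habitat. The members were the 3 arrays titled FC EDL and the 3 titled BG EDL, which are 6 of the 18 arrays of the study. All mice were adult C57BL/N6 males. Flight Control (FC) mice lived for 30 days in the facility and ate standard chow. Bion Ground (BG) mice lived for 30 days in the replicate of the Bion M1 habitat and ate the paste food made for the flight. Bion Flown (BF) mice spent 30 days in orbit on the same paste and in the same kind of habitat, and their 3 EDL arrays were set beside the ground groups only for reference. The 6 soleus arrays of FC and BG mice served to ask whether a difference was also seen in a second muscle. Housing and food changed together between FC and BG, so their effects cannot be told apart. The labels number the arrays but do not name animals, so each p-value measures the spread between these arrays.

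EDL is a fast limb muscle that is built mainly of glycolytic fibres and burns glucose and glycogen in short bursts, whereas soleus is a slow postural muscle. The choice between fatty acids and glucose as fuel follows feeding. Free fatty acids switch on mitochondrial oxidation genes through the receptors of the PPAR family, and insulin after a carbohydrate-rich meal favours fatty acid synthesis. Muscle samples also hold blood vessels, connective tissue, tendon, fat cells and nerve, and the part of each can vary from one dissection to the next.

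The arrays measured the signal of probe sets on the log2 scale, with 12393 genes each represented by the brightest probe set that named it alone. A difference is given throughout as the FC mean minus the BG mean of the log2 signal, so that a positive value is higher in facility mice and 1 unit is 2-fold. The fast markers held for the tissue label. Myh4, the myosin heavy chain of the fastest fibres, had a mean of 14.07 ± 0.05 in BG EDL and 14.22 ± 0.10 in FC EDL (SD, n = 3), against 9.51 in BG soleus and 9.77 in FC soleus. None of the 17 measured fast contractile and calcium genes had an unadjusted p under 0.05, and their median difference was 0.04. The SE draws on the spread in both muscles, which was wide in soleus for some of these genes. Myh4 differed by 0.15 with an SE of 0.79, and its SD in BG soleus was 2.34. For such genes the p could not show a small change in EDL. Pvalb was lower in all FC arrays than in all BG arrays, at -0.07.

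Within the EDL groups, 2 arrays stood apart from their partners. BG EDL 2 had 113 genes over 2-fold above both other BG arrays, where the other BG arrays had 12 and 9, and the excess held keratin genes described further on. FC EDL 3 had 31 genes over 2-fold above and 42 over 2-fold below both other FC arrays, and it was the array with the least slow muscle signal. The summed linear signal of 6 slow markers (Myh7, Myl2, Myl3, Tnnt1, Tnni1 and Tnnc1) was 12300, 2680 and 4330 in BG EDL 1 to 3, 12200, 10700 and 920 in FC EDL 1 to 3, and 7020, 6490 and 4810 in BF EDL. The slow signal thus ranged widely within each ground group, and the ranges of the groups overlapped. Correlations between arrays over all genes were 0.986 to 0.995 within a ground group and 0.987 to 0.992 between FC and BG.

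With the thresholds that the study set for EDL (over 2-fold and an unadjusted p under 0.05), 52 of 12393 genes (0.420%) were called. Facility mice were higher for 25 (0.202%) and lower for 27 (0.218%). The median difference over all genes was -0.01, and 1371 genes (11.1%) had an unadjusted p under 0.05 at any fold. Only 4 genes (0.0323%) had an adjusted p under 0.05 in limma with Benjamini-Hochberg adjustment over all probe sets. They were Mid1ip1, Six2 and Irx5, all over 2-fold, and Hivep2, a zinc finger transcription factor that differed by 0.66. The 3 FC arrays did not overlap with the 3 BG arrays for 35 of the 52 called genes, and for 17.7% of all genes (8.80% with FC above and 8.90% with FC below). Of the 25 genes higher in FC, 22 had non-overlapping arrays. Of the 27 lower in FC, 13 did. Single arrays moved the counts: 79 genes were called without BG EDL 1 and 80 without BG EDL 3, and the 4 genes at an adjusted p became 38 without BG EDL 2, 9 without FC EDL 3 and 0 without any 1 of the others. None had an adjusted p under 0.05 when only the EDL arrays or only the FC and BG EDL arrays were fitted, after quantile normalisation within each muscle, or with the replicate number as a block, and with array quality weights 369 did.

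**Figure D1:**
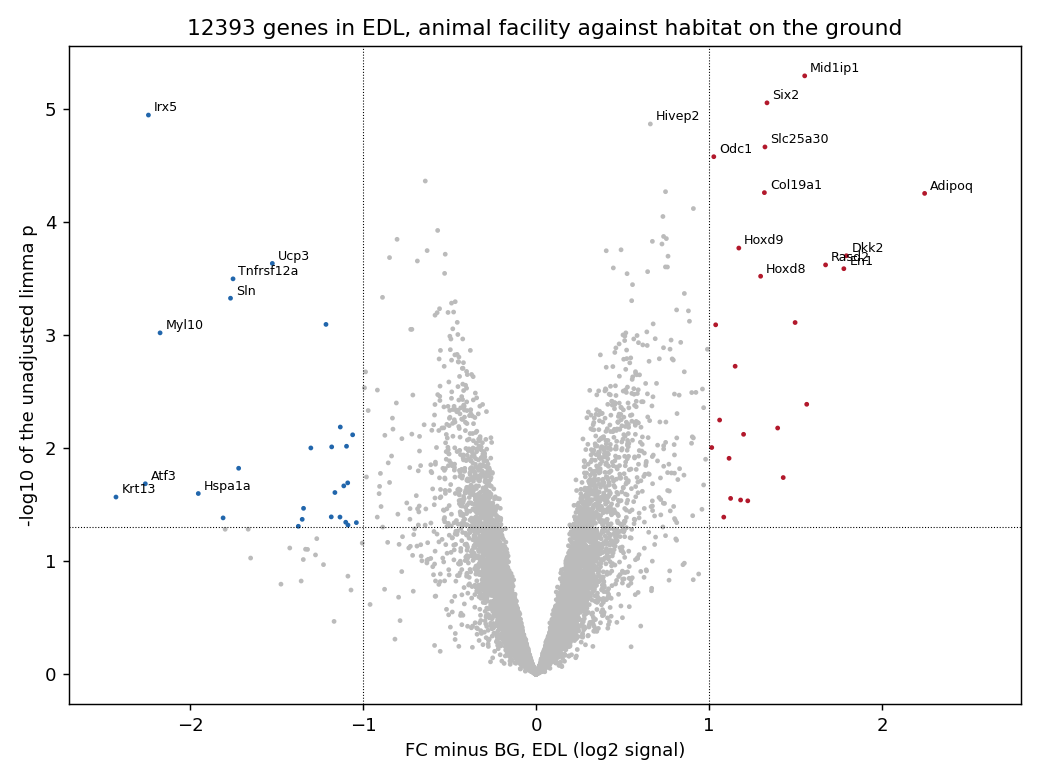
Each point is 1 of 12393 genes in EDL. The x axis is the FC minus BG difference in log2 signal and the y axis is -log10 of the unadjusted limma p; dotted lines mark the thresholds, red marks the 25 called genes higher in FC and blue the 27 lower. Mid1ip1, Six2 and Irx5 stand highest, and Krt13, Atf3 and Hspa1a are far to the left at a low -log10 p.

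The first gene by p-value was Mid1ip1, whose protein binds acetyl-CoA carboxylase and promotes fatty acid synthesis. Its log2 signal was 8.46, 9.35 and 9.40 in BG EDL 1 to 3 and 10.78, 10.75 and 10.34 in FC EDL 1 to 3. Every FC array lay above every BG array, and the BG arrays spread more than the FC arrays. The difference was 1.55 ± 0.24 (SE; limma adjusted p = 0.0387), and in soleus it was 1.53. In the 3 flown EDL arrays Mid1ip1 was at 9.59, 9.39 and 9.48, close to the upper BG arrays.

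Mid1ip1 was the one called gene among the 20 measured genes of fatty acid and triglyceride synthesis. In that list 5 genes had an unadjusted p under 0.05 with FC higher, against 5.74% of all genes, and none had one with FC lower, against 5.33% of all genes. The list's median difference was 0.16. The 5 became 2 without BG EDL 1 and 3 without BG EDL 3 or FC EDL 3, and 1 member was lower without BG EDL 2 or FC EDL 1. Fasn, fatty acid synthase, was at 6.53, 7.03 and 6.96 in BG and 7.05, 7.33 and 8.60 in FC, a difference of 0.82 ± 0.32 (limma adjusted p = 0.322). FC EDL 3 was the array that stood out, and the other 2 FC arrays were just above the BG arrays. Scd2, a stearoyl-CoA desaturase, differed by 0.72 ± 0.28 (limma adjusted p = 0.321), but its fainter probe sets had the opposite sign, -0.23 and -0.26. Of the 16 cholesterol synthesis genes 4 had an unadjusted p under 0.05, all with FC higher and all under 2-fold, against 5.74% of all genes. Among them Fdft1, squalene synthase, differed by 0.51 ± 0.16 (limma adjusted p = 0.239), and its fainter probe sets by 0.45, 0.20 and -0.03. Dhcr7, which makes cholesterol in the last step, differed by 0.46 ± 0.12 (limma adjusted p = 0.172). The 4 genes became 2 without BG EDL 3 or FC EDL 3, with 1 lower member in the latter case, and 2 members were lower without BG EDL 2.

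Some fat cell genes were also higher in the facility group. Adipoq encodes adiponectin, a hormone that fat cells secrete, and had the largest positive difference of any gene. It was at 6.28, 6.66 and 7.23 in BG and at 8.82, 8.26 and 9.83 in FC. The groups were over 1 unit apart at their nearest arrays, and FC EDL 3 was the highest. The difference was 2.25 ± 0.42 (limma adjusted p = 0.0605), and 1.82 without FC EDL 3. Cidec, a fat cell lipid droplet protein, was called too, at 1.12 ± 0.47 (limma adjusted p = 0.358), and it lost the call without BG EDL 1, BG EDL 2 or FC EDL 3. Of the 17 measured adipocyte markers 10 were higher and 7 lower in FC, with a median difference of 0.17. An unadjusted p under 0.05 was found for 5 with FC higher and 0 with FC lower. Over all genes the shares were 5.74% and 5.33%. The count was 2 without BG EDL 1, and 3, with 1 lower, without BG EDL 2 or FC EDL 3. Car3, a carbonic anhydrase abundant in fat and also in muscle fibres, was at 12.98, 12.88 and 13.42 in BG and 13.79, 13.90 and 13.92 in FC. Fabp4, another abundant fat cell gene, was at 12.25 to 12.55 in BG and 12.18 to 12.37 in FC, with a difference of -0.14. The summed signal of Adipoq, Cidec, Lep and Retn was 172 to 275 in BG, 429 to 1220 in FC and 347 to 858 in BF. That of all 17 markers was 18100 to 21500 in BG, 22900 to 28100 in FC and 18100 to 26400 in BF. These sums are linear, so the brightest genes weigh most. The larger one mainly follows genes as bright as Car3, and the share of Car3 that comes from muscle fibres was not taken out. In whole muscle, more fat cells and more RNA per fat cell cannot be told apart.

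Hp, Cyp2e1 and Igf1 were called higher as well, and are set together here by no list. Hp, haptoglobin, was at 5.55, 5.58 and 5.72 in BG and 7.04, 6.29 and 7.71 in FC, and the difference was 1.40 ± 0.45 (limma adjusted p = 0.249). Cyp2e1, a cytochrome P450 of ethanol and ketone metabolism, differed by 1.12 ± 0.40 and did not pass the thresholds without BG EDL 2 (0.91) or without FC EDL 3. Igf1, the growth factor that muscle and liver release, was at 8.23, 7.51 and 8.29 in BG and 8.94, 9.17 and 9.36 in FC. All FC arrays were above all BG arrays, at 1.15 ± 0.31 (limma adjusted p = 0.183), and BG EDL 2 was the lowest, so that the difference was 0.90 without it and the call was lost. Less bright probe sets of Igf1 differed by 0.62 and 0.43.

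The opposite direction was seen in genes of fatty acid uptake and oxidation. Of 28 measured members 26 were lower in FC. An unadjusted p under 0.05 was found for 10 with FC lower and 0 with FC higher, against 5.33% and 5.74% of all genes. All FC arrays were below all BG arrays for 14 members, against 8.90% of all genes. The median difference was -0.21 in EDL and -0.18 in soleus. With 1 array left out the lower members numbered 7 to 14, and none was higher. The called members were Ucp3, Angptl4 and Acot2. In the beta-oxidation spiral itself, Acadvl, Acadl, Acadm, Acads, Hadha and Hadhb lay between -0.24 and -0.15, none at an unadjusted p under 0.05. Echs1, its enoyl-CoA hydratase, at -0.59 ± 0.18, and the isomerase Eci1, at -0.45 ± 0.18, had one, and they are named here after their values were seen.

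Ucp3, the uncoupling protein of skeletal muscle mitochondria, was at 10.13, 9.43 and 10.49 in BG and 8.14, 8.83 and 8.52 in FC. No FC array reached the lowest BG array, which was BG EDL 2. The difference was -1.53 ± 0.33 (limma adjusted p = 0.101). Ucp3 stayed past both thresholds with each array left out in turn, between -1.29 and -1.82.

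Acot2, a thioesterase that frees fatty acids from coenzyme A in mitochondria, was at 6.93, 7.62 and 6.72 in BG and 6.26, 5.76 and 5.60 in FC. All FC arrays were the lower ones, with a difference of -1.21 ± 0.30 (limma adjusted p = 0.155), which was -0.95 without BG EDL 2, under 2-fold. Acot1, its close paralogue, differed by -0.71 ± 0.35, and the array may not fully separate the paralogues. Angptl4, a secreted inhibitor of lipoprotein lipase, was at 7.55, 6.63 and 8.63 in BG and 6.30, 6.23 and 6.36 in FC. Its FC arrays were nearly equal and the BG arrays spread over 2 units, at -1.30 ± 0.45 (limma adjusted p = 0.279), and the call was lost without BG EDL 3.

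Some members under 2-fold were chosen here after their values were seen. Pdk4, the kinase that shuts off pyruvate dehydrogenase when fatty acids are burned, was at 12.94, 12.36 and 13.01 in BG and 11.77, 12.21 and 11.79 in FC. The groups were close at BG EDL 2 and FC EDL 2, and the difference was -0.85 ± 0.18 (limma adjusted p = 0.101). Plin5, a lipid droplet protein of oxidative tissue, was at 8.13, 8.74 and 8.82 in BG and 7.71, 7.5 and 7.52 in FC, at -0.99 ± 0.27. The transport proteins Cd36 and Fabp3 differed by -0.38 and -0.50. In contrast, the tricarboxylic acid cycle (19 genes) had no member at an unadjusted p under 0.05 and the respiratory chain (28 genes) had 1. The medians of both were within 0.05 of 0, although 24 of the 28 respiratory chain genes were lower in FC. Glycolysis and glycogen genes (23) had no member at an unadjusted p under 0.05.

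**Figure D2:**
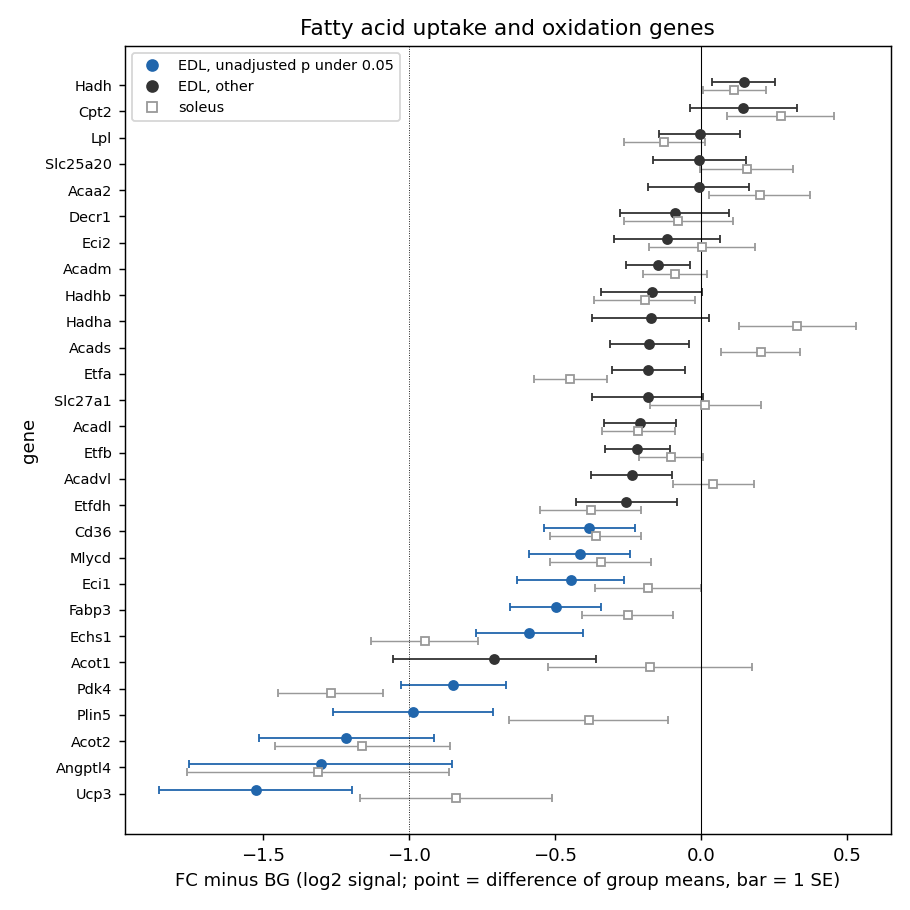
All 28 measured genes of fatty acid uptake and oxidation, ordered by the FC minus BG difference in log2 signal (x axis; bar: 1 SE). Circles are EDL, blue where the unadjusted limma p was under 0.05, and open squares are soleus; 26 circles lie left of 0 and Ucp3, Angptl4 and Acot2 pass the dotted 2-fold line.

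Genes that mark position along the limb formed a further group. Homeobox and T-box factors are laid down in the embryo and stay on in adult muscle and its connective tissue in a pattern that differs between muscles and along a limb. Of 29 measured members 3 were called higher (Six2, Hoxd8 and Hoxd9) and 1 lower (Irx5), against 0.202% and 0.218% of all genes, and 7 and 2 had an unadjusted p under 0.05, against 5.74% and 5.33%. The 7 became 4 without BG EDL 3. Six2 was at 7.07, 7.29 and 7.2 in BG and 8.74, 8.78 and 8.05 in FC. The BG arrays were within 0.3 of each other and all FC arrays were above them, at 1.33 ± 0.21 (limma adjusted p = 0.043). Irx5, an Iroquois homeobox factor, went the other way, at 6.2, 7.07 and 6.14 in BG and 4.39, 3.90 and 4.40 in FC. The FC arrays were tightly grouped and far below, at -2.24 ± 0.37 (limma adjusted p = 0.043).

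Hoxd8 was at 7.71, 7.64 and 7.90 in BG and 9.45, 9.62 and 8.07 in FC. FC EDL 1 and 2 carried the difference of 1.30 ± 0.29 (limma adjusted p = 0.103), and FC EDL 3 was just above the BG arrays. Hoxd9 had the same pattern, at 6.67, 6.87 and 7.07 in BG and 8.34, 8.53 and 7.25 in FC (1.17 ± 0.24), and came under 2-fold without FC EDL 2. Without FC EDL 3 the difference of Hoxd8 was 1.79. Hoxd10, under 2-fold at 0.99 ± 0.26, was at 3.36 to 3.74 in BG and 4.77, 5.18 and 3.72 in FC. En1, engrailed 1, which marks ventral limb ectoderm in the embryo and was not in the list, was at 3.00, 3.55 and 3.10 in BG and 5.73, 5.55 and 3.70 in FC (1.78 ± 0.39, limma adjusted p = 0.101, and 2.43 without FC EDL 3). For Six2, Hoxd8, Hoxd9, Hoxd10 and En1 alike FC EDL 3, the array with the least slow muscle signal, was the lowest FC array. Among the BG arrays, BG EDL 1 had the most slow muscle signal and the lowest Six2, Hoxd9 and En1, and its Hoxd8 lay between the others. The part of fibre content in the difference was not tested. The HoxA and HoxC genes of the list had differences between -0.14 and 0.18.

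**Figure D3:**
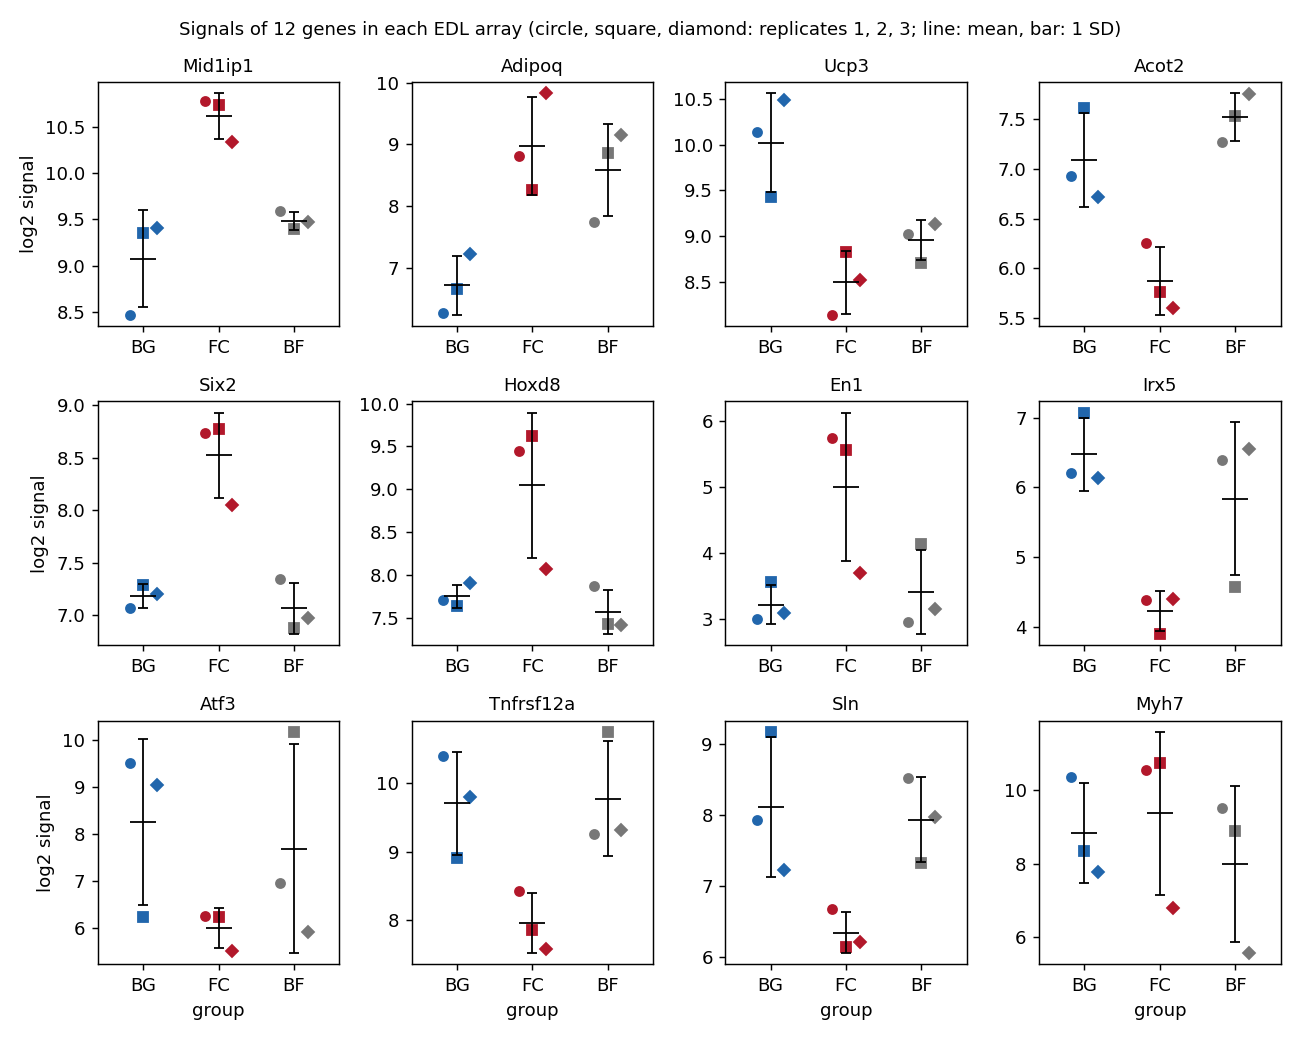
Log2 signal (y axis) of 12 genes in each EDL array of the BG, FC and BF groups (x axis). Circle, square and diamond are replicates 1, 2 and 3, the line is the group mean and the bar 1 SD (n = 3). FC and BG do not overlap for Mid1ip1, Adipoq, Ucp3, Acot2, Six2, Hoxd8, En1, Irx5, Tnfrsf12a and Sln, whereas Atf3 is high in only BG EDL 1 and 3 and Myh7 spreads widely within each group.

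A few genes of slow fibres were lower in FC. Sln encodes sarcolipin, a small inhibitor of the sarcoplasmic reticulum calcium pump, and was at 7.92, 9.17 and 7.22 in BG and 6.67, 6.14 and 6.2 in FC. All FC arrays were below all BG arrays, at -1.77 ± 0.41 (limma adjusted p = 0.126), and -1.23 without BG EDL 2, the highest. Pln, phospholamban, a related inhibitor, differed by -0.52 ± 0.18 (limma adjusted p = 0.282). Myh6, the alpha cardiac myosin, was called at -1.18 ± 0.41, and not without FC EDL 3. These were the 3 members at an unadjusted p under 0.05 among 16 slow fibre genes, whose median was -0.16. Of all genes 5.33% had such a p with FC lower. FC EDL 3 turned the direction of the list: without it 7 members were higher, 6 of them called, 1 was lower and the median was 0.69. Myh7 itself, the slow myosin, was at 10.37, 8.33 and 7.77 in BG and 10.57, 10.75 and 6.80 in FC, a difference of 0.55 ± 0.95 that the arrays' spread covers.

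Myl10, a myosin regulatory light chain, was at 8.44, 8.20 and 8.44 in BG and 7.10, 7.11 and 4.35 in FC. The BG arrays were within 0.3 of each other although their slow marker sums differed, and FC EDL 3 was far below the rest. The difference was -2.17 ± 0.55 (limma adjusted p = 0.161) and -1.25 without FC EDL 3, still past both thresholds.

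Atf3 and Hspa1a were high in BG EDL 1 and 3 alone among the ground arrays, and are described together for that pattern. Atf3, a transcription factor induced by many stresses, was at 9.51, 6.23 and 9.04 in BG and 6.25, 6.24 and 5.52 in FC. BG EDL 2 lay among the FC arrays, and the difference was -2.26 ± 0.89 (limma adjusted p = 0.334). Hspa1a, the stress-inducible heat shock protein, was at 9.15, 7.14 and 10.45 in BG and 7.44, 7.53 and 5.92 in FC. Here BG EDL 2 was below 2 FC arrays, and the difference was -1.95 ± 0.80 (limma adjusted p = 0.348).

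Both calls were lost without BG EDL 1 (-1.63 and -1.84), without BG EDL 3 (-1.87 and -1.18) or without FC EDL 3 (-2.02 and -1.43), and both differences were larger without BG EDL 2 (-3.28 and -2.84). Hspa1b, a near-identical copy of Hspa1a whose reading the array may share, missed the threshold (-1.66 ± 0.80, limma adjusted p = 0.422). Of the 24 heat shock and co-chaperone genes only Hspa1a and Hspb1 had an unadjusted p under 0.05, and Hspb1, a small heat shock protein of muscle, was at 12.27 to 12.33 in BG and 11.11 to 11.99 in FC (-0.71 ± 0.21). These 2 genes were 8.33% of the list, against 5.33% of all genes with FC lower, and the median of the list was -0.05. Without BG EDL 2, 5 of its members were lower at that p, and without BG EDL 1, BG EDL 3 or FC EDL 3, 1 was.

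The muscle stress genes Ankrd1 (-1.35 ± 0.62) and Xirp1 (-1.10 ± 0.51) and the metal-binding Mt1 (-1.13 ± 0.37) were also lowest in BG EDL 2 among the BG arrays. Ankrd1 and Xirp1, an ankyrin repeat protein and an actin-binding protein of strained muscle, lost the call in 7 and 9 of 17 alternative settings, among them without BG EDL 1, BG EDL 3, FC EDL 2 or FC EDL 3, and Xirp1 without FC EDL 1 as well. Mt1 lost it without BG EDL 1 or FC EDL 1, and with the mean of its probe sets, of which the fainter differed by -0.26. Tnfrsf12a, the receptor of the cytokine TWEAK, was higher in all BG arrays. It was at 10.40, 8.91 and 9.80 in BG and 8.43, 7.86 and 7.57 in FC. BG EDL 2 was again the lowest BG array but was above every FC array, at -1.75 ± 0.39 (limma adjusted p = 0.103), and Tnfrsf12a stayed called with any array left out. Of the 22 glucocorticoid-responsive genes 4 had an unadjusted p under 0.05, all lower in FC, against 5.33% of all genes. Mt1 and Angptl4 were called, and without BG EDL 3 only 1 member had an unadjusted p under 0.05. The cell cycle inhibitor Cdkn1a, a member of the list, was at 9.0, 8.86 and 9.59 in BG, 7.74, 8.32 and 8.69 in FC and 10.21 to 10.79 in BF (FC minus BG -0.90 ± 0.34).

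Of the 27 genes called lower in FC, 13 were called through BG EDL 2 alone, where each was over 2-fold above both other BG arrays, and lost the call without it. All but Lce3a also lost it without at least 1 of the FC arrays. Most are epithelial. Krt13, a keratin of lining epithelia, was at 4.28, 11.05 and 5.78 in BG and 4.76, 4.62 and 4.45 in FC. The difference of -2.43 ± 1.0 (limma adjusted p = 0.355) was -0.42 without BG EDL 2. Its partner Krt4 was at 11.65 in BG EDL 2 and at 5.34 to 6.41 in the other 5 ground arrays. The other 12 were Krt6a, Krt16, Krt34, Krtap13, Krtap13-1, Lce1f, Lce1i, Lce3a, Calml3, Slpi, Fetub and Ada, which include keratins, hair keratin-associated proteins and late cornified envelope proteins. The summed signal of 22 epithelium markers was 10700 in BG EDL 2 and 717 to 1270 in the other 8 EDL arrays. Without BG EDL 2, 0 of the 22 were called and 1 had an unadjusted p under 0.05, and their median moved from -0.34 to 0.06. Without that array 52 genes were again called, 33 higher and 19 lower, and 31 of them were among the 52 called with it. Trp63, an epithelial transcription factor, at 5.42 to 6.07 in BG and 4.87 to 5.11 in FC, and Sprr1a, a cornified envelope protein, at 5.61 to 7.08 and 5.18 to 5.38, were the markers whose groups did not overlap. Fainter probe sets of Trp63 differed by only -0.13 and -0.005. Sox4, a developmental transcription factor, was also called lower (-1.06 ± 0.35), and lost the call without BG EDL 2, BG EDL 3, FC EDL 1 or FC EDL 2.

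**Figure D4:**
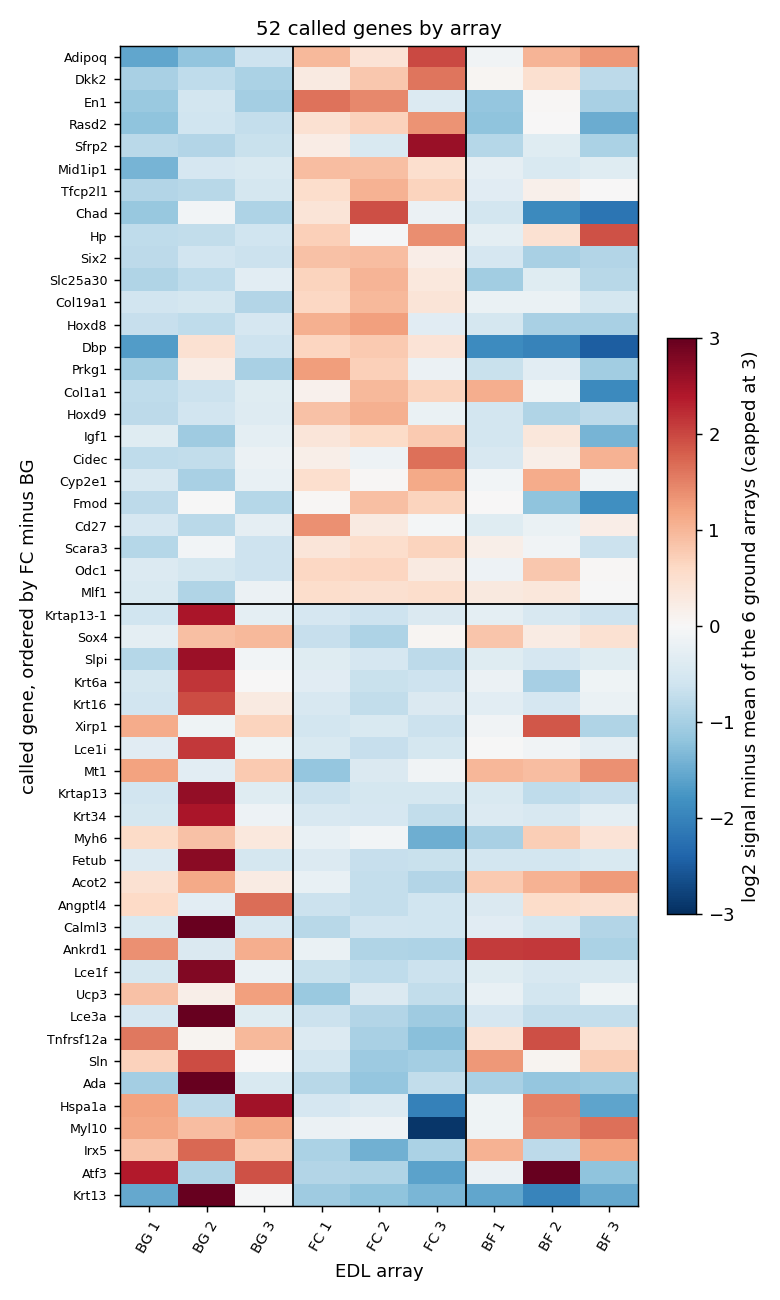
The 52 called genes (rows, from the highest FC minus BG difference to the lowest) in the 9 EDL arrays (columns). Colour is the log2 signal minus the mean of the 6 ground arrays, capped at 3 units either way. In the lower block BG EDL 2 alone is dark red for the keratin and envelope genes, and BG EDL 1 and 3 are red for Atf3, Hspa1a, Ankrd1 and Mt1.

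Tendon and cartilage matrix genes had mostly positive differences, 14 of 17. An unadjusted p under 0.05 was found for 5 with FC higher and 0 with FC lower, against 5.74% and 5.33% of all genes. The median was 0.43. Single arrays removed most of that count, which was 1 without BG EDL 1, 1 without BG EDL 3, 3 without BG EDL 2 and 0 without FC EDL 2. Chad, chondroadherin of cartilage and tendon, was at 7.65, 8.71 and 7.88 in BG and 9.19, 10.72 and 8.62 in FC. FC EDL 3 lay below BG EDL 2, and FC EDL 2 was the highest, at 1.43 ± 0.55 (limma adjusted p = 0.32). Fmod, fibromodulin, was at 10.65, 11.42 and 10.58 in BG and 11.47, 12.33 and 12.10 in FC, just without overlap (1.08 ± 0.49, limma adjusted p = 0.397). The calls of both were lost without BG EDL 1, BG EDL 3 or FC EDL 2, and that of Fmod without FC EDL 3 as well. The summed signal of the list was 6450 to 7880 in BG, 9070 to 15800 in FC and 5000 to 12100 in BF, and in soleus the median was 0.02. The tendon-specific Tnmd (0.60 ± 0.66) and Scx (0.14 ± 0.23) did not pass, and the part of tendon in the samples was not tested. Among 27 collagens and matrix genes 4 had an unadjusted p under 0.05, all higher in FC, against 5.74% of all genes. Of these Col1a1 was called (1.18 ± 0.50). Col1a1 lost the call without BG EDL 1, BG EDL 2, FC EDL 2 or FC EDL 3. The count of 4 became 0 without BG EDL 1, 1 without BG EDL 2, 7 without FC EDL 1 and 1, with 1 lower, without FC EDL 3.

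Secreted Wnt modulators were among the genes with the largest differences toward FC. Dkk2, a dickkopf protein, was at 4.21, 4.44 and 4.23 in BG and 5.47, 6.01 and 6.79 in FC, with a gap of about 1 unit between the groups (1.79 ± 0.38, limma adjusted p = 0.101). Sfrp2, a secreted frizzled-related protein, was at 3.91, 3.84 and 4.05 in BG and 4.93, 4.26 and 7.31 in FC. FC EDL 3 set its size, at 1.56 ± 0.47 (limma adjusted p = 0.232) and 0.66 without that array. These were chosen by the size of their difference, and no list of Wnt genes was examined.

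The other genes called higher span several functions. Rasd2, a small GTPase, was at 5.96 to 6.55 in BG and 7.63 to 8.51 in FC (1.67 ± 0.36), and Tfcp2l1, a transcription factor, at 6.58 to 6.92 and 7.97 to 8.51 (1.5 ± 0.37). Odc1, ornithine decarboxylase, the first enzyme of polyamine synthesis, was at 10.35, 10.24 and 10.15 in BG and 11.38, 11.40 and 11.04 in FC. Its groups were narrow and well apart (1.03 ± 0.18, limma adjusted p = 0.055), and it came under 2-fold without BG EDL 3, FC EDL 1 or FC EDL 2. Slc25a30, a mitochondrial carrier, differed by 1.32 ± 0.23 (limma adjusted p = 0.0548), and its 4 other probe sets by 1.53, 0.50, 0.11 and, for the faintest, -0.19. Col19a1 (1.32 ± 0.25) likewise had a second probe set with the opposite sign, -0.37. Prkg1, the cGMP-dependent protein kinase, Scara3, Mlf1 and Cd27 differed by 1.2, 1.04, 1.02 and 1.06. Each was lost without at least 1 array: Prkg1 without BG EDL 1 or FC EDL 1, Scara3 without BG EDL 1, BG EDL 3 or FC EDL 3, Mlf1 without BG EDL 2 and Cd27 without BG EDL 2 or FC EDL 1.

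Of 18 measured clock genes 3 had an unadjusted p under 0.05 with FC higher and 3 with FC lower, against 5.74% and 5.33% of all genes. That balance depended on single arrays: 8 were higher and 1 lower without BG EDL 2, 1 and 1 without BG EDL 1 or FC EDL 2, 2 and 4 without BG EDL 3, and 3 and 1 without FC EDL 3. Dbp, a transcription factor driven directly by the clock, was at 7.08, 9.21 and 8.13 in BG and 9.39, 9.54 and 9.16 in FC. BG EDL 2 was within the FC range and BG EDL 1 was the lowest, at 1.22 ± 0.51 (limma adjusted p = 0.361). The call for Dbp was lost without BG EDL 1 (0.69), BG EDL 3, FC EDL 1 or FC EDL 2, and the difference without BG EDL 2 was 1.76. Hlf, of the same family, was at 6.69, 7.58 and 7.0 in BG and 7.89, 7.83 and 7.99 in FC, without overlap (0.81 ± 0.19, limma adjusted p = 0.143). Per2 differed by 0.63 ± 0.23, and its fainter probe set by 0.03. The lower members were Arntl, the BMAL1 subunit (-0.85 ± 0.33), Npas2, its partner (-0.44 ± 0.17), and Nr1d1, the repressor REV-ERB alpha (-0.90 ± 0.39). The hour at which each muscle was taken was not given by the labels.

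The clock activator pair binds the letters CACGTG, an E-box. These letters, which read the same on both strands, were found in the 250 bases before the start of 4 of the 16 clock genes with a promoter in RefSeq (25%), and of 909 of the 9887 measured genes with one (9.19%). The 4 stretches are shown on GRCm38.p6, 5′ to 3′ on the gene's strand, with the E-box in capitals and 40 bases on each side.
Per1, chr11:69098743-69098828, plus strand: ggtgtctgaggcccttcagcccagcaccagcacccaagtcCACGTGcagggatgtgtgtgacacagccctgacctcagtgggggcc
Cry1, chr10:85185069-85185154, minus strand: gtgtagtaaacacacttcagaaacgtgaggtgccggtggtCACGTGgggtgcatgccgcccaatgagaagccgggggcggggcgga
Bhlhe41, chr6:145865528-145865613, minus strand: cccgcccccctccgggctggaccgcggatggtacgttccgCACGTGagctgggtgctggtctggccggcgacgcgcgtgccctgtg
Tef, chr15:81802506-81802591, plus strand: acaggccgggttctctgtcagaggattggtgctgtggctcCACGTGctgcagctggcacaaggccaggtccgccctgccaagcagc
These 4 genes differed by -0.13 (Per1), 0.39 (Cry1), 0.04 (Bhlhe41) and 0.18 (Tef), none with an unadjusted p under 0.05. The letters were in 1 of 22 promoters of genes called higher in FC (En1) and in 2 of 19 of those called lower (Lce3a and Slpi).

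Endothelial genes had small and mostly negative differences, 17 of 18, with a median of -0.17. An unadjusted p under 0.05 was found for 3, all lower in FC, against 5.33% of all genes. The 3 became 5 without BG EDL 1. Cldn5, the tight junction protein of vessels, was at 7.46, 7.31 and 7.62 in BG and 6.83, 6.81 and 6.85 in FC. The FC arrays were almost equal and clearly below (-0.63 ± 0.13, limma adjusted p = 0.0995). Pecam1, an endothelial adhesion molecule, differed by -0.56 ± 0.16 (limma adjusted p = 0.219), whereas Cdh5 and Kdr, equally endothelial, differed by -0.18 ± 0.15 and -0.07 ± 0.18 and did not pass. The neutrophil, macrophage, lymphocyte and Schwann cell lists had no member at an unadjusted p under 0.05. The same was true of ribosomal proteins (20 genes), endoplasmic reticulum folding (24) and iron and haem (17). Probe sets of Ighm, an immunoglobulin gene of the lymphocyte list, disagreed. The brightest differed by -0.29, whereas fainter ones differed by 1.66 and 0.35, both at an unadjusted limma p under 0.05. Its remaining ones lay between -0.20 and 0.19. Nrip1, a corepressor of oxidative metabolism genes, was the one member of 17 regulators of oxidative metabolism at an unadjusted p under 0.05, at 9.19 to 9.43 in BG and 9.97 to 10.35 in FC (0.91 ± 0.18, limma adjusted p = 0.072).

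**Figure D5:**
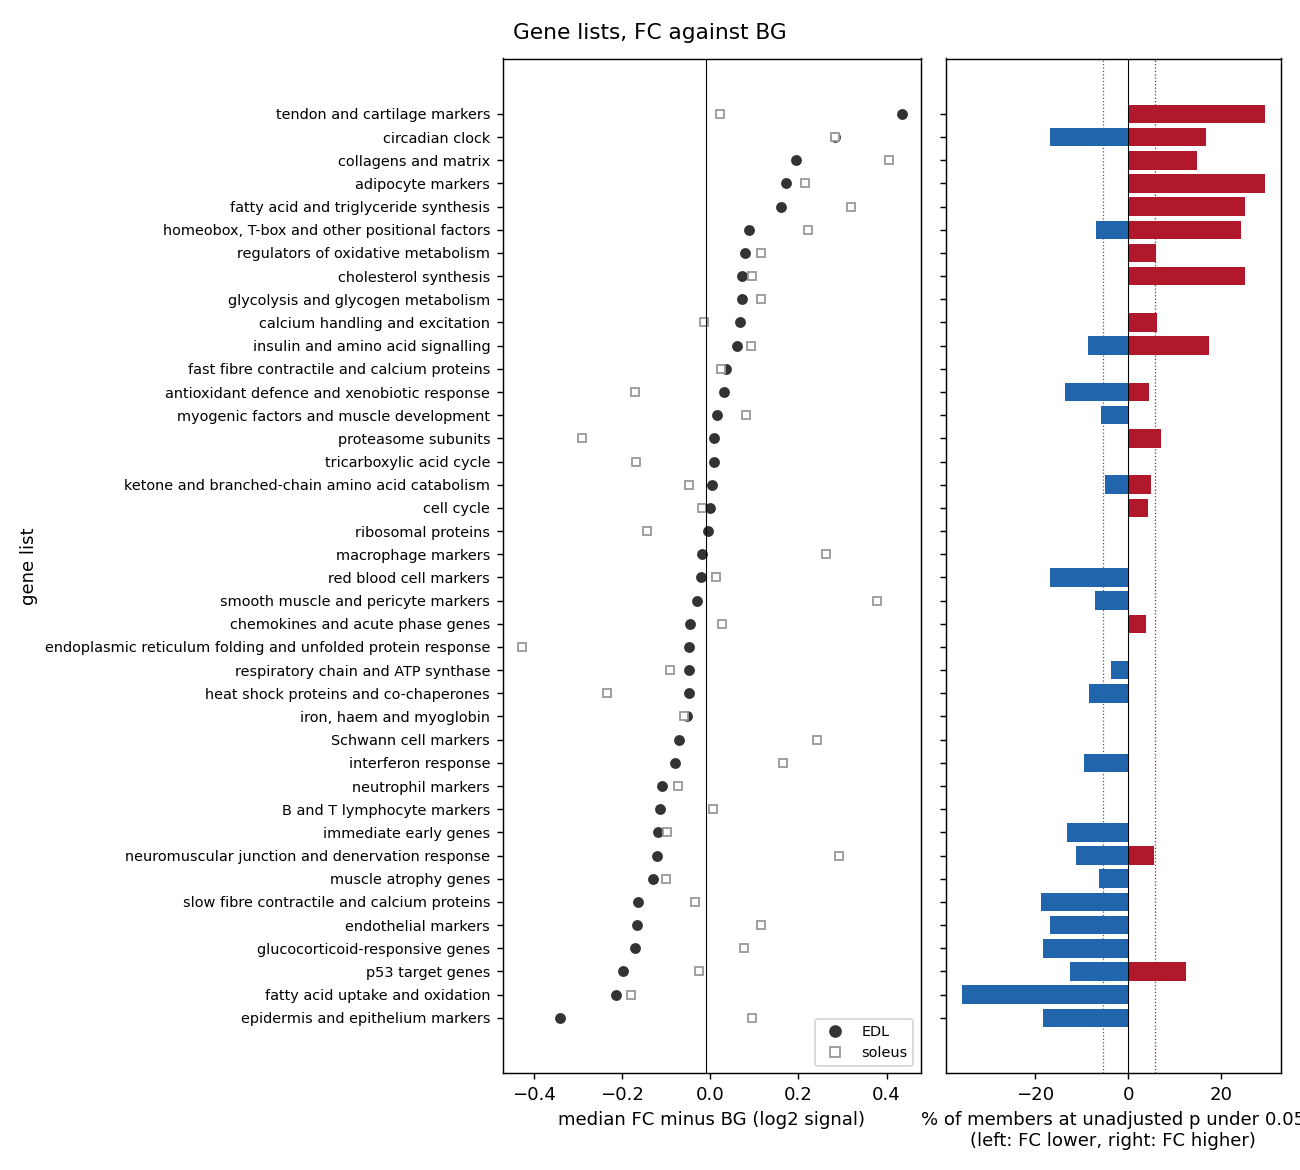
For 40 gene lists (y axis), the left panel gives the median FC minus BG difference in log2 signal, with filled circles for EDL, open squares for soleus and the vertical line at the EDL median of all genes. The right panel gives the percent of measured members at an unadjusted p under 0.05, FC lower in blue to the left and FC higher in red to the right, and the dotted lines are the shares over all genes, 5.33% and 5.74%. The fatty acid oxidation list has the longest blue bar, 10 of 28 genes.

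The difference between FC and BG was then compared with that in soleus. Of the 52 called genes 8 were also over 2-fold with an unadjusted p under 0.05 in the same direction in soleus, namely Acot2, Adipoq, Angptl4, Dbp, Mid1ip1, Scara3, Tfcp2l1 and Tnfrsf12a. The corresponding shares of all genes in soleus were 0.363% for FC higher and 0.331% for FC lower. None was called in the opposite direction, and 35 of 52 had the same sign, against 52.4% of all genes. Over all genes the 2 differences had a Pearson r of 0.207 and a Spearman rho of 0.148, across genes, which are not independent. Some metabolic genes were of like size in both muscles. Acot2 differed by -1.21 in EDL and -1.16 in soleus, and Angptl4 by -1.30 and -1.31. In contrast, Adipoq differed by 2.25 and 1.06, and Ucp3 was not among the 8.

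The interaction between muscle and group tested whether the 2 differences were unequal. No gene passed an adjusted p under 0.05 with a gap over 1 unit in limma, and 104 of 12393 (0.839%) did at an unadjusted p. Without BG EDL 1, 78 genes passed the adjusted threshold, and without FC EDL 3, 2 did. Among the 52 called genes 15 had an unadjusted p under 0.05 for the gap at any size, against 15.9% of all genes, and the 52 were chosen by the EDL difference that enters the gap, so nothing is read from that share. The smallest were Odc1, with an EDL minus soleus gap of 1.35 ± 0.26 (limma adjusted p = 0.0727), and Irx5, with one of -2.59 ± 0.52 (adjusted p = 0.0882). The positional genes Hoxd8 (1.68), En1 (2.24) and Six2 (1.11) were among them, and in soleus their differences were -0.38, -0.46 and 0.23. Sln had a gap of -2.20 ± 0.58, and its soleus difference was 0.43. None of the synthesis or oxidation genes called in EDL was among the 15, which does not show that their differences were equal in the 2 muscles.

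The flown EDL arrays were set beside the 2 ground groups for the called genes. They share the FC and BG arrays with the main comparison, so their place is a description. The BF mean lay between the FC and BG means for 36 of 52 genes and was nearer to FC for 21, which were 6 of the 25 higher in FC and 15 of the 27 lower. Of those 27, 13 were called through BG EDL 2 alone, which raised their BG mean. Krt13, for example, had means of 7.04 in BG, 4.61 in FC and 4.13 in BF. For these genes no likeness of flown to facility mice is read from the count. Six2 was at 7.34, 6.88 and 6.98 in BF, Hoxd8 at 7.87, 7.42 and 7.42 and En1 at 2.95, 4.14 and 3.14, mostly within or close to the BG range, as the plot of signals by array shows. Acot2 was at 7.27, 7.53 and 7.75, in the range of BG or above it. Ucp3, at 9.02, 8.71 and 9.13, was nearer to FC, and Adipoq, at 7.74, 8.87 and 9.16, largely overlapped FC. Irx5 was at 6.39, 4.57 and 6.55, with 2 arrays like BG and 1 near FC.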

How the data were processed

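Total RNA of EDL and soleus was hybridised to Affymetrix mouse genome expression arrays, 18 in all. The authors deposited log2 signals that they had normalised together by RMA in Partek Genomics Suite, so no scanner intensity, depth or detection call entered here, and the number of arrays limits precision. From these values, 22626 probe sets (64 control probe sets left out) were fitted in limma 3.58.1 (R 4.3.3) with 6 group means and eBayes moderation, and p-values were adjusted by Benjamini-Hochberg over all probe sets. A gene was represented by the brightest of its probe sets that named it alone, by the platform annotation and RefSeq GRCm38.p6; 691 probe sets named several genes and 1606 none. The named genes were those at an adjusted p under 0.05, the 15 highest and 15 lowest called ones with non-overlapping arrays, up to 3 per list and the cell type markers; further called genes are named beside them. The members and the 40 lists were chosen with earlier results of these data known. The fit was tested on simulated data. Alternatives covered the arrays fitted, moderation, weights, filter, scaling, probe set choice, thresholds, replicate block and each array left out. Promoter sequences came from RefSeq and figures from matplotlib.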

Additional observations from a re-analysis of the deposited data

How the results depend on the processing

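With the main setting 52 genes were called, 25 higher and 27 lower in FC, 4 passed an adjusted p under 0.05 in limma, and 0 differed between the muscles. Fitting the EDL arrays alone left 14 lower genes and 0 at an adjusted p, and the FC and BG EDL arrays alone 15 and 0. Ordinary contrasts without moderation called 33, 12 of them lower, with 1 at an adjusted p, and trend and robust moderation called 16 lower genes. Array quality weights gave 369 genes at an adjusted p and 111 between the muscles. Between the muscles, median centring gave 5, quantile normalisation within each muscle 1 and a random block 3, and that quantile normalisation left 0 at an adjusted p. Any probe set of a gene gave 73 called and 8 at an adjusted p, a 1.5-fold threshold called 233 and an adjusted p with 2-fold 3. Leaving out 1 array at a time, 44 to 80 genes were called (79 without BG EDL 1, 80 without BG EDL 3), 23 to 36 higher and 19 to 56 lower, with 0 to 38 at an adjusted p (38 without BG EDL 2) and 0 to 78 between the muscles (78 without BG EDL 1). The causes were not tested.

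The replicate number as a block called 53 genes, 52 of them shared with the main 52, and left 0 at an adjusted p. The deviations of arrays with the same number correlated at 0.147, 0.156 and 0.073. BG EDL 1 and BG EDL 2 correlated best with the FC array of their own number, and BG EDL 3 with FC EDL 1 (0.124). Whether arrays of 1 number share more than that number was not tested. In the 16 or 17 alternatives fitted gene by gene, which leave out the other thresholds and the choice of any probe set, no difference of a called gene changed sign, and 13 genes stayed called: Adipoq, Dkk2, En1, Hoxd8, Hp, Irx5, Mid1ip1, Myl10, Rasd2, Six2, Sln, Tnfrsf12a and Ucp3. With 3 arrays a group an exact test could not go below 0.1.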

Other observations

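Among 23 genes of insulin and amino acid signalling, 4 had an unadjusted p under 0.05 with FC higher and 2 with FC lower. Over all genes the shares were 5.74% and 5.33%. The higher ones became 2 without BG EDL 3 and 1 without FC EDL 2 or FC EDL 3. Beside Igf1 the higher ones included Igfbp4, an IGF-binding protein (0.49 ± 0.20), and Eif4ebp1, a repressor of translation (0.43 ± 0.17). Fainter probe sets of Igfbp4 differed by -0.13 to 0.58, and those of Eif4ebp1 by 0.31 and -0.06. Eif4ebp1 was at 9.71, 9.53 and 9.10 in BG and 9.85, 9.90 and 9.88 in FC, and at 10.31, 10.99 and 10.63 in flown mice. Among 16 p53 target genes 2 were higher at an unadjusted p under 0.05, Ccng1, cyclin G1 (0.42 ± 0.17), and Zmat3 (0.28 ± 0.12), and 2 were lower. Each pair was 12.5% of the list, against 5.74% and 5.33% of all genes. Without BG EDL 3 none passed in either direction. Fainter probe sets of Ccng1 differed by 0.07 and 0.06.

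Of 22 antioxidant and xenobiotic genes, Gclm, a subunit of the enzyme that starts glutathione synthesis, was higher in FC (0.41 ± 0.15) and Gpx3, the secreted glutathione peroxidase, was lower, at 12.05, 12.25 and 12.06 in BG and 11.62, 11.70 and 11.76 in FC (-0.43 ± 0.16). Gpx3 differed by 0.53 in soleus, and the EDL minus soleus gap had a limma adjusted p of 0.0942. Among 18 genes of the neuromuscular junction and denervation response, Lrp4, the agrin receptor, was higher (0.54 ± 0.16, and 0.63 in soleus), whereas Cntfr, which binds the ciliary neurotrophic factor, had a lower signal (-0.53 ± 0.24) with overlapping arrays. In the interferon list (21 genes) Gbp6, a guanylate-binding protein, was at 7.18, 6.78 and 6.68 in BG and 6.23, 6.73 and 5.43 in FC (-0.75 ± 0.32). All these differences were under 2-fold except that of Igf1, and none had an adjusted p under 0.05 in limma for EDL.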
